A study of Mus musculus with 4 samples.

Results

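Semaphorins, plexins and neuropilins are the ligands, receptors and co-receptors of a guidance system that steers axons, dendrites and migrating cells. The members were chosen by symbol: every measured probe set whose single platform gene symbol names a semaphorin of classes 3 to 7, a plexin of types A to D, or neuropilin 1 or 2. This gave 78 of 45037 probe sets, which stand for 31 of 18193 genes: 20 semaphorins, 9 plexins and 2 neuropilins. They were read on 4 Affymetrix arrays of primary cultures from C57BL6 mouse cerebral cortex, 2 of neurons and 2 of astrocytes. The neurons came from embryos of day 16 and were kept in medium with 1% serum and 19.4 mM glucose, and the series' design text gives them 7 days in vitro. The astrocytes came from newborn mice and grew in 10% serum and 33 mM glucose, for 20 days in vitro by the same text, although the protocol text gives 1 shorter period for all assays. Cell type, donor age, medium and time in culture therefore change together and cannot be told apart. No transgene, drug or other treatment is named for either group. The titles call the 2 arrays of a group biological replicates, the labels do not say whether they came from separate animals or platings, and p-values measure only the spread between these arrays.

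The signal of a probe set is the MAS5 intensity, on a linear scale that was set to the same mean on every array. Replicate arrays correlated at 0.980 (neurons) and 0.983 (astrocytes) on the log2 scale, across the 25019 probe sets bright enough to be tested. The highest of 27 Bacillus subtilis control probe sets, which have no target in mouse RNA, reached 21 and 23 in the neuron cultures and 17 and 15 in the astrocyte cultures, and a signal at or under that value is called background here. All 8 neuron markers examined were higher in the neuron cultures, with summed signals of 27659 and 27354 against 1655 and 1450 in astrocytes. Of 8 astrocyte markers 7 were higher in the astrocyte cultures, with sums of 6545 and 6656 in neurons and 28842 and 28155 in astrocytes. The cultures were profiled whole, so more cells of a type and more RNA per cell cannot be told apart in any of the differences below. Markers of other cell types also differed between the groups, and their values close the account.

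A semaphorin carries a sema domain that binds the sema domain of a plexin on the receiving cell. Most secreted class 3 semaphorins need a neuropilin, which binds the ligand and forms a complex with an A-type plexin, while the membrane-bound classes bind plexins directly. The plexin's cytoplasmic part is a GTPase-activating region for small Ras-like and Rap GTPases, and its engagement loosens integrin adhesion and rearranges actin and microtubules. In the developing cortex the system is known for repelling or attracting growth cones, for dendrite and spine shape, and for neuron migration.

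Of the 30 member genes with a probe set bright enough to be tested, 15 were higher in neurons (50.0%, against 31.0% of all 12040 genes tested), 6 were higher in astrocytes (20.0%, against 31.1%), and 9 did not pass. A gene was called where its adjusted p from limma, over all probe sets tested, was under 0.05, and it was read by its probe set of highest mean. In either direction 21 members (70.0%) were called, against 62.2% of all genes, so the overall share lay near the background. At 2-fold or more 16 members (53.3%) were called, 11 higher in neurons and 5 in astrocytes, against 36.8% of all genes. The median log2 difference, neurons minus astrocytes, was 0.54 over the members and 0.02 over all genes. The groups did not overlap for any of the 21 called members. A call from so few arrays nearly requires this, and the share over all genes was not computed. Of the 78 probe sets 56 were tested, with 28 higher in neurons and another 13 in astrocytes. This is 73.2% called, against 57.2% of all probe sets tested. To be tested, a probe set had to reach the array's median on 2 arrays. Through the neuron arrays alone 7 genes met this (Nrp2, Plxnd1, Sema4a, Sema4c, Sema4f, Sema6b and Sema6c) and through the astrocyte arrays alone 2 did (Sema3b and Sema3d), while 18 reached the median on all 4 arrays. These counts describe the genes tested and are not a test of the families.

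**Figure D1:**
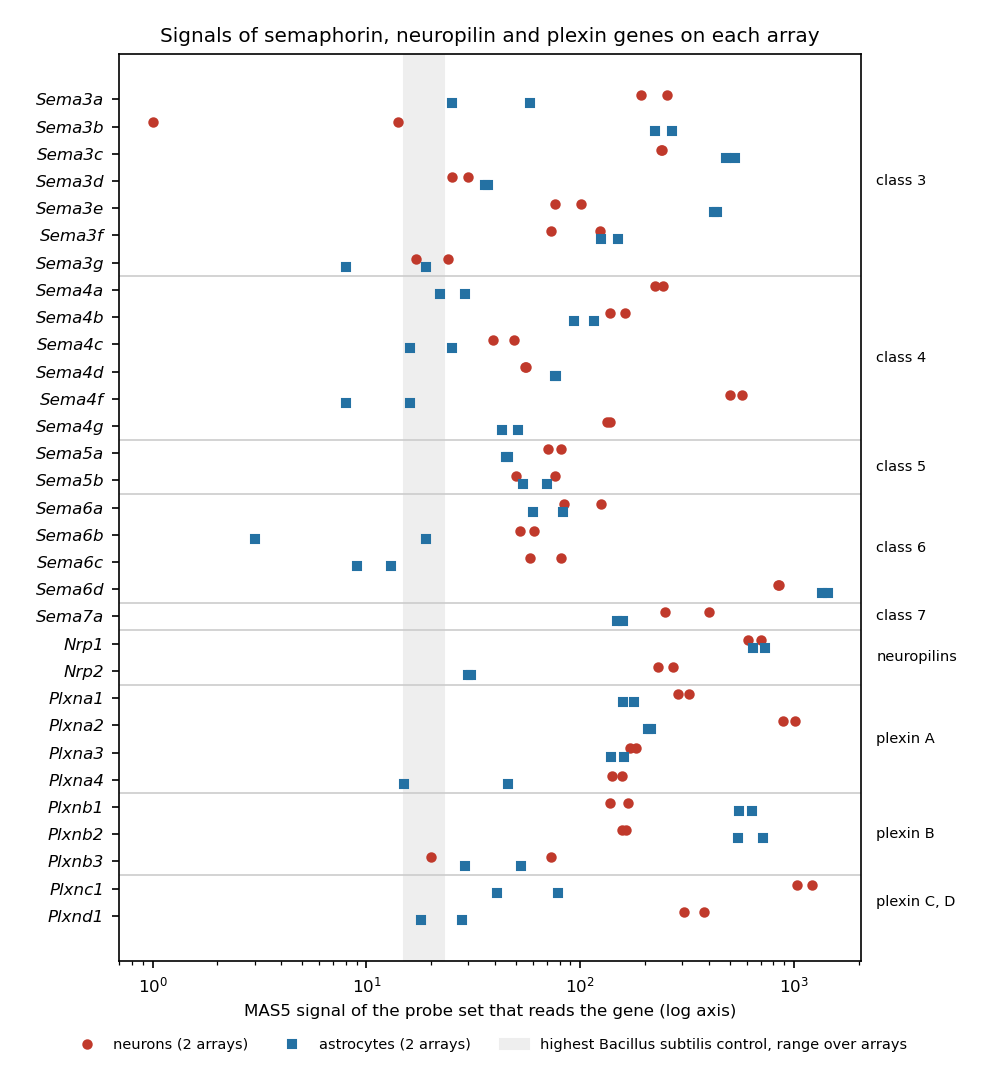
MAS5 signal (log axis) of the probe set that reads each gene, with neurons as red circles above astrocytes as blue squares, 1 point per array, and the grey band the range of the highest Bacillus subtilis control over the arrays. Plxnc1, at 1212 and 1035 in neurons and 79 and 41 in astrocytes, and Sema3e, at 76 and 101 in neurons and 438 and 421 in astrocytes, lie apart in opposite directions, while the points of Nrp1 interleave.

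**Figure D2:**
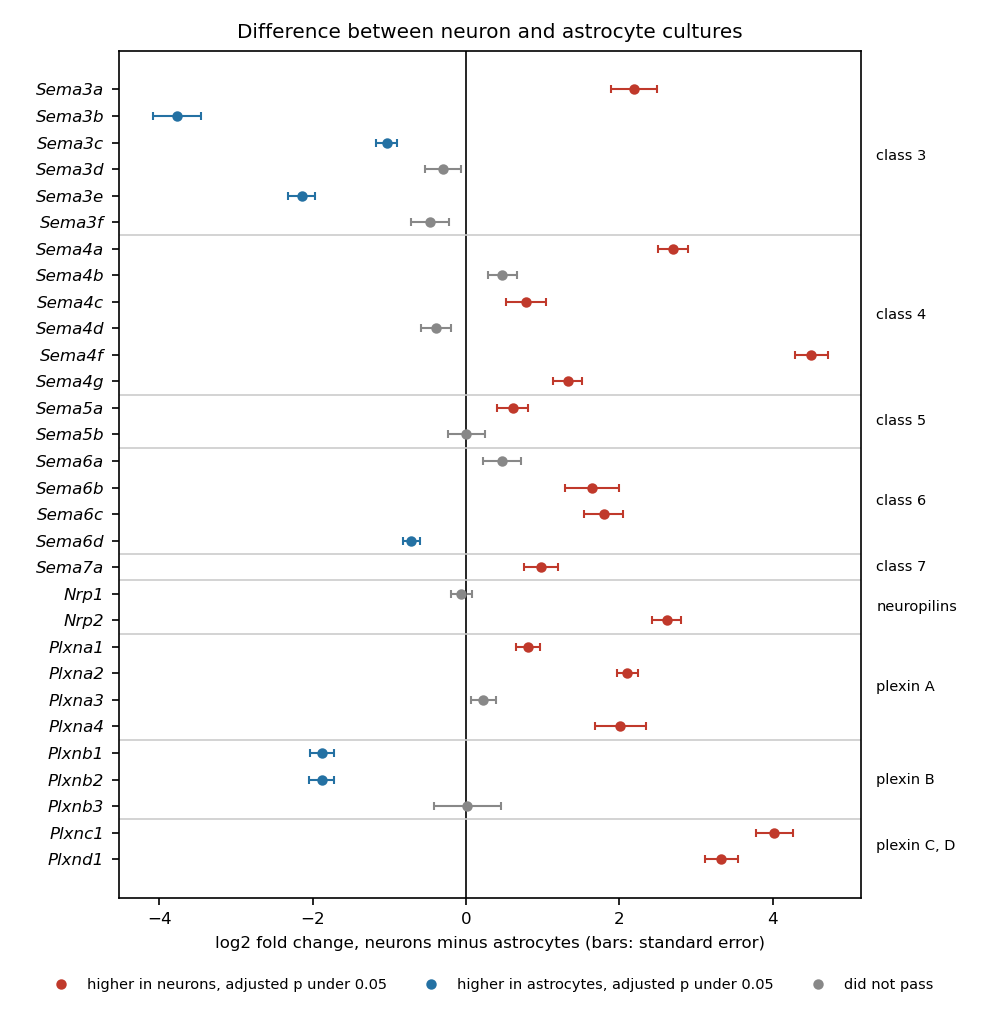
Log2 difference, neurons minus astrocytes, with its standard error for the 30 genes tested, red where higher in neurons and blue where higher in astrocytes at an adjusted p under 0.05, grey where neither. All called class 4 semaphorins and A-, C- and D-type plexins lie to the right, both called B-type plexins lie to the left near -1.87 and -1.88, and class 3 is divided.

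RefSeq promoter windows (GRCm38.p6, 250 bases before to 50 after each gene's start) were matched by symbol to 26 of the 31 members, giving 37 windows. Plxna1, Plxna4, Sema3b, Sema3f and Sema6a had none in the table. The windows are printed for the members with the largest called differences that have exactly 1 window, 3 higher in neurons and 2 higher in astrocytes, so that the start regions of genes that go opposite ways can be read side by side. They lie at chr6:82939720-82940019 on the minus strand (Sema4f), chr10:94944796-94945095 on the minus strand (Plxnc1), chr6:115994956-115995255 on the minus strand (Plxnd1), chr5:14025026-14025325 on the plus strand (Sema3e) and chr9:109095186-109095485 on the plus strand (Plxnb1). Each is written 5′ to 3′ on the gene's strand, and capitals mark a match, on either strand, to 1 of the motifs searched.
Sema4f: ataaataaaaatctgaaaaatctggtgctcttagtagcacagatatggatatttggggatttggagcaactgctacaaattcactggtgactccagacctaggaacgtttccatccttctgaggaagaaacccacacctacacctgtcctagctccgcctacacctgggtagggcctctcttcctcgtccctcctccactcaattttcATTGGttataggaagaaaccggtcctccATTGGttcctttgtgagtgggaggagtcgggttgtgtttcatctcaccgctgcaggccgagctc
Plxnc1: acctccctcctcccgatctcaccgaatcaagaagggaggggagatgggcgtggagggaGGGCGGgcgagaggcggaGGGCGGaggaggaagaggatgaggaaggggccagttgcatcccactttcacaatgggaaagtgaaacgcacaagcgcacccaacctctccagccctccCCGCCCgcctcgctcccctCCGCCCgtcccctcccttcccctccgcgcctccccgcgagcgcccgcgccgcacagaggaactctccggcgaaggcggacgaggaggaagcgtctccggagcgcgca
Plxnd1: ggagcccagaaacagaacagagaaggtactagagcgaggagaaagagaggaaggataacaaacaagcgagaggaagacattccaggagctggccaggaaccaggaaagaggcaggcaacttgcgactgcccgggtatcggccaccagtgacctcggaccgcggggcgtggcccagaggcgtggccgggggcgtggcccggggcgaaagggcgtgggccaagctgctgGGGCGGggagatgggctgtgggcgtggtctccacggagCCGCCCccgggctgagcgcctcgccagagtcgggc
Sema3e: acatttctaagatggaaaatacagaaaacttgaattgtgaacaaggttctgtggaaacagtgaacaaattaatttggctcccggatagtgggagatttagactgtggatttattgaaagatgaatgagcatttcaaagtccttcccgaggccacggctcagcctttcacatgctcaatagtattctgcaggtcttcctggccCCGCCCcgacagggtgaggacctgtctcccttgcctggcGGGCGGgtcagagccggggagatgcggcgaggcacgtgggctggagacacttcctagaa
Plxnb1: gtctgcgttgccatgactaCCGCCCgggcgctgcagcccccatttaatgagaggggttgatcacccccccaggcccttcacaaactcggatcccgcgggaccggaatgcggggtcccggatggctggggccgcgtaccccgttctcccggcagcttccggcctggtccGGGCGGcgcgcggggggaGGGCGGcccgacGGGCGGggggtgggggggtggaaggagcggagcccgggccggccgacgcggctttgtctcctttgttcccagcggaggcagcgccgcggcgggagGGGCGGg
The motifs searched on both strands were the TATA box TATAAA, the CCAAT box CCAAT, the GC box GGGCGG, the E-boxes CAGCTG and CATCTG, the AP-1 site TGANTCA, with N any base, and the cAMP response element TGACGTCA. None of these overlaps another in the 5 windows shown. The window of Sema4f holds 2 CCAAT matches and no GC box, with 48.7% G and C. That of Plxnc1 holds 4 GC boxes at 69.0% G and C, that of Plxnd1 holds 2 at 67.0%, that of Sema3e holds 2 at 50.7% and that of Plxnb1 holds 5 at 74.7%.

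Over all members' windows, GC boxes were common and TATA boxes absent. GGGCGG was in 27 of 37 windows (73.0%), against 35.7% of 32851 windows of all genes off chromosome 18. TATAAA was in 0 of 37, against 13.6%, and CCAAT in 7 (18.9%), against 37.4%. CAGCTG was in 16.2% of members' windows and 16.3% of all, CATCTG in 5.41% and 17.2%, TGANTCA in 8.11% and 7.81%, and TGACGTCA in 0 of 37 and 1.79%. The members' windows had a median of 63.7% G and C and 15 CpG, against 52.7% and 7 in all windows. The GC box was in 15 of 19 windows of members higher in neurons and in 6 of 7 windows of members higher in astrocytes, so it was frequent whichever culture held more of the transcript. A match describes the letters and is not a binding site.

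The secreted class 3 semaphorins were divided between the cultures. Of the 6 tested, 1 was higher in neurons (Sema3a), 3 were higher in astrocytes (Sema3b, Sema3c and Sema3e) and 2 did not pass (Sema3d and Sema3f), with a median log2 difference of -0.75. The shares in neurons and astrocytes were 16.7% and 50.0%, against 31.0% and 31.1% of all genes, and the class as such was not tested. Sema3a, which collapses growth cones through neuropilin 1 and A-type plexins, gave 193 and 255 in neurons and 58 and 25 in astrocytes. Both neuron arrays were above both astrocyte arrays, which themselves differed more than 2-fold. The log2 difference was 2.19 ± 0.30 (SE), 4.56-fold, with an adjusted p of 0.000315, and without neuron replicate 2 the adjusted p was 0.0565. A second tested probe set of Sema3a was higher in neurons too, by 1.45.

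Sema3b, a ligand of the neuropilins, gave 1 and 14 in neurons, both background, and 224 and 268 in astrocytes. It was therefore at least 11.1-fold higher in astrocytes, measured against the background of the neuron arrays. The fitted log2 difference was -3.77 ± 0.32 (SE, adjusted p 1.76e-05), which ran between -2.37 and -4.88 when the offset added before the log was changed. Sema3e, which binds Plxnd1 without a neuropilin, gave 76 and 101 in neurons and 438 and 421 in astrocytes. All 4 of its tested probe sets were higher in astrocytes, by log2 differences of -1.25 to -2.69, and the one that reads the gene gave -2.14 ± 0.17 (SE), 4.41-fold, adjusted p 1.39e-05. Sema3c, a ligand of both neuropilins and of Plxnd1, gave 239 and 240 in neurons and 528 and 479 in astrocytes, a log2 difference of -1.03 ± 0.14 (SE), 2.05-fold, adjusted p 0.000252. Its other tested probe set, 43 and 41 in neurons and 69 and 54 in astrocytes, did not pass (-0.43 ± 0.22 SE, adjusted p 0.124). Each of these genes thus had more signal on both astrocyte arrays than on either neuron array.

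The 2 others tested did not pass. Sema3d, at 25 and 30 in neurons and 36 and 37 in astrocytes, differed by -0.30 (adjusted p 0.312). Sema3f, the ligand that repels axons through neuropilin 2, gave 124 and 73 in neurons and 150 and 125 in astrocytes on the probe set that reads it (adjusted p 0.135). Its other tested probe set gave 8 and 7 in neurons, both background, and 50 and 45 in astrocytes, at least 2.16-fold higher in astrocytes (log2 difference -1.58 ± 0.25 SE, adjusted p 0.000694). Sema3f was thus called or not called according to the probe set. Sema3g, at 24 and 17 in neurons and 19 and 8 in astrocytes, was too dim to be tested.

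Several of these genes are neighbours on the chromosome. In the RefSeq order Sema3d and Sema3a lie next to each other on chromosome 5 with no protein-coding gene between them, and Sema3e follows Sema3a after 3 protein-coding genes and Sema3c follows Sema3e after 15. Along this stretch Sema3a was higher in neurons, while Sema3e and Sema3c were higher in astrocytes and Sema3d did not pass. Sema3b and Sema3f lie on chromosome 9 with 3 protein-coding genes between them, Gnai2, Slc38a3 and Gnat1.

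The class 4 semaphorins, which span the membrane, included 6 tested genes, of which 4 were higher in neurons, 0 in astrocytes and 2 did not pass, with a median log2 difference of 1.05. Among all genes 31.0% were higher in neurons, and the class as such was not tested. Sema4f, which binds the postsynaptic scaffold PSD-95, gave 501 and 568 in neurons and 8 and 16 in astrocytes. One of the astrocyte arrays was at background and the other 1 unit over it. The fitted log2 difference was 4.50 ± 0.21 (SE, adjusted p 7.98e-07), and it was 3.24 with an offset 4 times as large, so its size is uncertain. It comes from a probe set of the kind named _x_at, whose probes can also match other transcripts. The gene's other probe set, 138 and 157 in neurons and 34 and 28 in astrocytes, gave a smaller difference in the same direction, 1.88 ± 0.20 (SE, adjusted p 7.32e-05). Sema4a, known from T cell activation and the retina, gave 223 and 244 in neurons and 22 and 29 in astrocytes, 2.70 ± 0.20 (SE), 6.50-fold, adjusted p 7.47e-06. Its other probe set, 104 and 73 in neurons against 3 and 1 in astrocytes, was at least 5.46-fold higher in neurons. Both probe sets of Sema4a therefore gave differences of nearly the same size.

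Sema4g, a ligand of Plxnb2, gave 138 and 134 in neurons and 43 and 51 in astrocytes, 1.32 ± 0.19 (SE), 2.50-fold, adjusted p 0.000428. Sema4c, also a Plxnb2 ligand, gave 49 and 39 in neurons and 16 and 25 in astrocytes and was higher in neurons by 0.78 ± 0.26 (SE, adjusted p 0.0298), a call lost when any single array was left out. Sema4b, which binds PSD-95 as well, gave 161 and 138 in neurons and 116 and 93 in astrocytes, and its difference of 0.47 ± 0.19 (SE) missed the threshold (adjusted p 0.0591). Sema4d (CD100), the main ligand of Plxnb1, gave opposite signs on its 2 tested probe sets. The one that reads the gene had 55 and 56 in neurons and 77 and 76 in astrocytes, and its difference of -0.39 ± 0.20 (SE) did not pass (adjusted p 0.122). The other had 82 and 78 in neurons and 14 and 1 in astrocytes, at least 5.01-fold higher in neurons (2.29 ± 0.33 SE, adjusted p 0.000456). No direction is therefore given for Sema4d as a gene.

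Among the class 5 semaphorins, membrane proteins with thrombospondin repeats that can attract or repel, 1 of 2 was called, against 62.2% of all genes. Sema5a, a ligand of Plxnb3 and of A-type plexins, gave 81 and 71 in neurons and 45 and 46 in astrocytes, a difference of 0.61 ± 0.20 (SE, adjusted p 0.0317) that was lost when any single array was left out. Sema5b, which limits growth of retinal processes through Plxna1 and Plxna3, gave 50 and 76 in neurons and 70 and 54 in astrocytes, overlapping groups that differed by 0.01 (adjusted p 0.986).

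The class 6 semaphorins, transmembrane ligands of A-type plexins, were divided. Sema6c gave 81 and 58 in neurons and 13 and 9 in astrocytes, both background, and was at least 4.29-fold higher in neurons (1.79 ± 0.26 SE, adjusted p 0.000419). Sema6b, a ligand of Plxna4, gave 61 and 52 in neurons and 19 and 3 in astrocytes, a difference of 1.64 ± 0.35 (SE, adjusted p 0.00381). Astrocyte array 2 was at background and array 1 just over it, and with an offset 4 times as large the difference of Sema6b was 0.82. Without neuron replicate 1 the adjusted p of Sema6b was 0.117 and without neuron replicate 2 it was 0.0941. Sema6d went the other way: it gave 839 and 850 in neurons and 1433 and 1351 in astrocytes, -0.71 ± 0.11 (SE), 1.64-fold higher in astrocytes, adjusted p 0.000703. Replicates were close, and the groups did not overlap. Sema6a, the ligand of Plxna2 and Plxna4, gave 125 and 84 in neurons and 60 and 83 in astrocytes and did not pass (0.47 ± 0.24 SE, adjusted p 0.131).

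Sema7a, the only class 7 member, is anchored by a lipid and acts through Plxnc1 and integrin beta 1. It gave 399 and 249 in neurons and 159 and 149 in astrocytes, a difference of 0.98 ± 0.22 (SE), 1.97-fold, adjusted p 0.00475. The neuron arrays differed from each other more than the astrocyte arrays did, and without astrocyte replicate 1 or 2 the adjusted p was 0.107 or 0.125.

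The neuropilins, co-receptors for class 3 semaphorins and for forms of VEGF, differed from each other. Nrp2 gave 272 and 232 in neurons and 31 and 30 in astrocytes, 2.62 ± 0.19 (SE), 6.13-fold, adjusted p 6.51e-06. All 3 of its tested probe sets were higher in neurons, by 1.37 to 2.62, and on none did the groups overlap. Nrp1 gave 698 and 611 in neurons and 727 and 640 in astrocytes, interleaved values that differed by -0.06 ± 0.13 (SE, adjusted p 0.720). Of its 4 tested probe sets 3 did not pass, and the remaining one, 138 and 151 in neurons and 93 and 93 in astrocytes, was higher in neurons by 0.57 (adjusted p 0.0200).

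Of the 9 plexins tested, 5 were higher in neurons, all of types A, C and D, and 2 in astrocytes, both of type B. The remaining 2, Plxna3 and Plxnb3, did not pass. Among all genes 31.0% were higher in neurons and 31.1% in astrocytes, and the types as such were not tested. Plxna2, a receptor of Sema6a, gave 883 and 1010 in neurons and 213 and 208 in astrocytes, 2.10 ± 0.13 (SE), 4.29-fold, adjusted p 3.61e-06. Its 4 probe sets were all called, between 1.62 and 2.16. Plxna4, which pairs with neuropilin 1 for Sema3a, gave 141 and 157 in neurons and 46 and 15 in astrocytes, 2.01 ± 0.33 (SE), 4.02-fold, adjusted p 0.000938. The 2 astrocyte arrays differed from each other about 3-fold, and the adjusted p of Plxna4 was 0.0719 or 0.0818 without neuron replicate 1 or 2. Plxna1 gave 287 and 322 in neurons and 179 and 158 in astrocytes, 0.81 ± 0.16 (SE), 1.75-fold, adjusted p 0.00217, or 0.0506 without astrocyte replicate 2. Plxna3, a partner of neuropilin 2 for Sema3f, gave 171 and 182 in neurons and 139 and 160 in astrocytes and did not pass (0.22 ± 0.16 SE, adjusted p 0.274).

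Plxnb1, the receptor of Sema4d, gave 138 and 168 in neurons and 550 and 637 in astrocytes, -1.87 ± 0.16 (SE), 3.67-fold, adjusted p 1.78e-05. A second probe set was higher in astrocytes by a smaller difference, -0.85. Plxnb2, known for roles in cerebellar and neural tube development, gave 157 and 164 in neurons and 547 and 715 in astrocytes, -1.88 ± 0.16 (SE), 3.69-fold, adjusted p 2.11e-05. Both genes thus had more signal on each astrocyte array than on each neuron array, by nearly the same fold. Plxnb3, the receptor of Sema5a, gave 20 and 73 in neurons and 53 and 29 in astrocytes, a spread within groups as wide as the whole range (0.02 ± 0.44 SE, adjusted p 0.979).

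Plxnc1 and Plxnd1 had the largest differences of any receptor in the 3 families. Plxnc1, the Sema7a receptor, gave 1212 and 1035 in neurons and 79 and 41 in astrocytes, 4.02 ± 0.24 (SE), 16.2-fold, adjusted p 2.56e-06. Its 3 tested probe sets were all higher in neurons, by 4.02, 2.63 and 1.50, so the direction held while the size did not. Plxnd1, the receptor through which Sema3e patterns vessels and some axon tracts, gave 305 and 379 in neurons and 18 and 28 in astrocytes, 3.33 ± 0.22 (SE), 10.0-fold, adjusted p 3.89e-06. It has a single probe set on the array. Of the astrocyte values, 18 was just over that array's background of 17, and 28 was over 15. With an offset 4 times as large the difference of Plxnd1 was 2.42, so its size is uncertain.

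For 18 members 2 or more probe sets were tested. In 11 of these every tested probe set was called in the same direction, and in 0 were probe sets called in opposite directions. The matching shares over all genes were not computed, so these counts describe the members only. In 5 some probe sets were called and others were not (Sema3c, Sema3f, Sema4d, Sema5a and Nrp1), and in Sema5b and Sema6a none was called. Probe sets of a gene can read different transcript ends or isoforms, and which of them differ in these cultures was not tested.

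**Figure D3:**
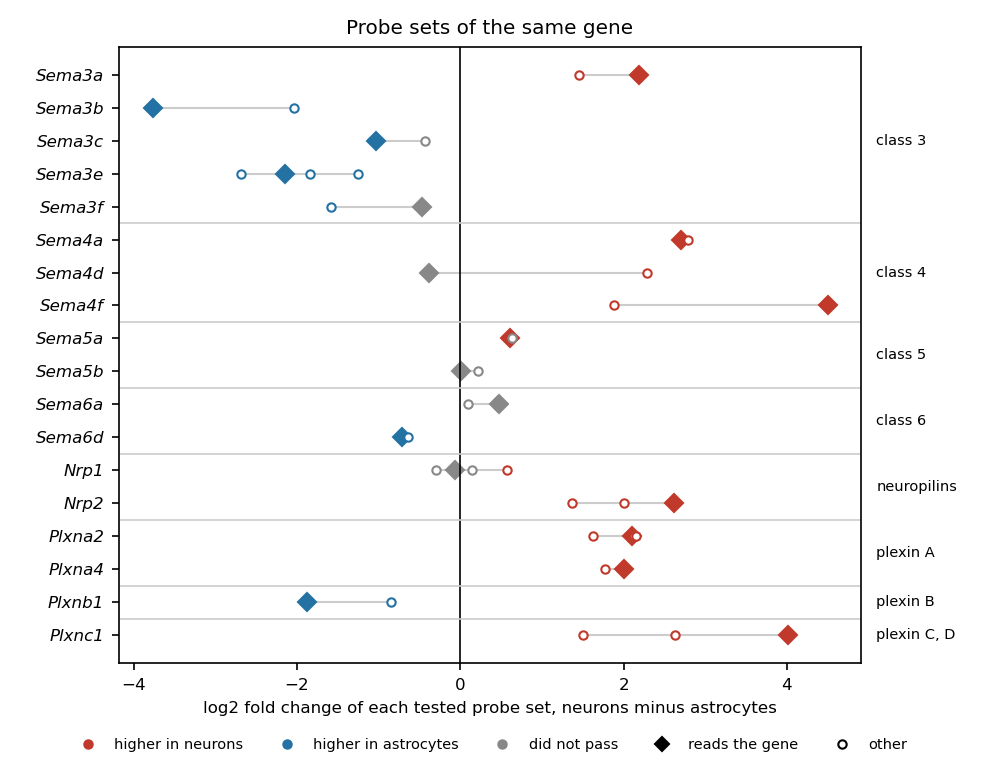
Log2 difference, neurons minus astrocytes, of every tested probe set of the 18 genes that have more than 1, with the probe set that reads the gene as a filled diamond and the others as open circles. The points of Sema4d lie on both sides of 0, at -0.39 and 2.29, those of Sema4f lie at 1.88 and 4.50, and those of Sema4a nearly coincide.

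Set against their known partners, some ligands and receptors were higher in opposite cultures and some in the same one. Of 30 ligand and receptor pairs listed from textbook knowledge, both genes were called in 15. In 7 pairs ligand and receptor were both higher in neurons: Sema3a with Plxna1 and Plxna4, Sema4a with Plxnd1, Sema5a with Plxna1, Sema6b with Plxna4, Sema6c with Plxna1, and Sema7a with Plxnc1. In 2 the ligand was higher in neurons and the receptor in astrocytes, Sema4c and Sema4g with Plxnb2. In 6 the ligand was higher in astrocytes and the receptor in neurons: Sema3b with Nrp2, Sema3c with Nrp2 and Plxnd1, Sema3e with Plxnd1, and Sema6d with Plxna1 and Plxna4. In 0 pairs were both higher in astrocytes. The receptors higher in astrocytes, Plxnb1 and Plxnb2, were listed only with Sema4c, Sema4d and Sema4g. None of these ligands was called higher in astrocytes, so this count follows from the calls above. The log2 differences of ligand and receptor were -3.77 and 2.62 for Sema3b with Nrp2, and -2.14 and 3.33 for Sema3e with Plxnd1. Nrp2, Plxnd1, Sema4a, Sema4c, Sema6b and Sema6c were bright enough to be tested through the neuron arrays alone, and Sema3b through the astrocyte arrays alone. For these genes the filter favoured the direction found, so pairs that hold them are no separate evidence of it. Pairs share genes and are not independent, and these counts say nothing of protein or of contact between cells. No matching share for pairs of other genes was computed, so the counts describe these pairs only. Many hold Sema3a, Sema4c, Sema5a, Sema6b, Sema7a, Plxna1 or Plxna4, whose calls were lost in a fit that left out an array. Over the alternative settings tried, added after the data were seen, the 4 counts ran over 3 to 7, 0 to 4, 5 to 7 and 0 to 0 in the same order.

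**Figure D4:**
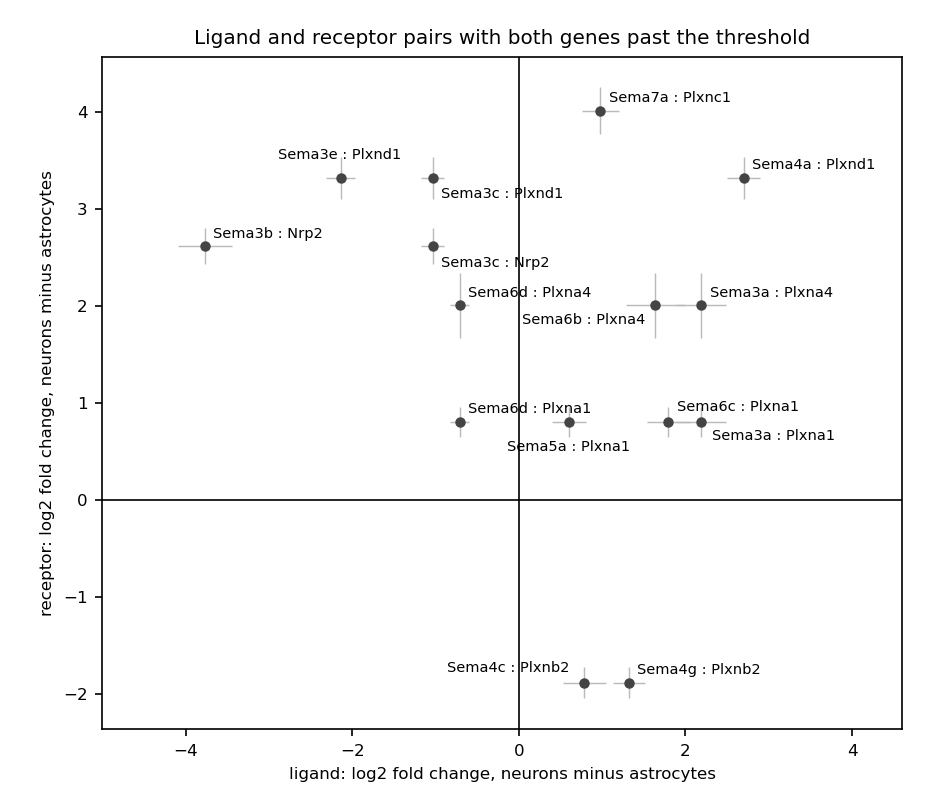
Log2 difference, neurons minus astrocytes, of the ligand (horizontal axis) and of the receptor (vertical axis) for the 15 pairs with both genes called, with standard errors as grey bars. The upper left holds 6 pairs with the ligand higher in astrocytes, the upper right 7 with both higher in neurons, the lower right 2, and the lower left is empty.

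Genes known to act with or below the plexins were read from 6 lists drawn from textbook knowledge, 67 genes of which 57 were tested. Of these 29 were higher in neurons (50.9%, against 31.0% of all genes tested), 20 were higher in astrocytes (35.1%, against 31.1%) and 8 did not pass, and their median log2 difference was 0.41, beside 0.02 for all genes. Among other receptors and co-receptors of semaphorins 8 were higher in neurons and 5 in astrocytes of 13 tested. L1cam, the adhesion molecule that joins the Sema3a receptor, gave 1955 and 1691 in neurons and 42 and 38 in astrocytes, 34.9-fold (log2 difference 5.13, adjusted p 1.35e-07). Sdc3, a heparan sulphate proteoglycan, gave 1023 and 907 in neurons and 155 and 122 in astrocytes, 6.50-fold (2.70, adjusted p 2.16e-06), but 1.38 when all its tested probe sets were averaged. Integrin subunits went the other way: Itgb1, part of the Sema7a receptor, gave 171 and 206 in neurons and 1077 and 1072 in astrocytes, 5.43-fold higher in astrocytes (-2.44, adjusted p 2.00e-06). Itga1, its partner in that receptor, gave 5 and 9 in neurons, both background, and 283 and 307 in astrocytes, at least 13.4-fold higher in astrocytes (-3.99, adjusted p 1.31e-06). The plexin receptor of Sema7a was thus higher in neurons and its integrin receptor chains higher in astrocytes.

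Of the VEGF genes, whose products share the neuropilins, 6 were tested, with 2 higher in neurons and 2 in astrocytes. Each is 33.3%, near the 31.0% and 31.1% of all genes tested. Vegfd gave 130 and 155 in neurons and 35 and 20 in astrocytes, 3.93-fold (1.98, adjusted p 0.000168). The others called were Vegfa, higher in neurons by 0.56 (adjusted p 0.0347), and Pgf and Vegfc, higher in astrocytes by -1.24 and -0.69 (adjusted p 0.0113 and 0.0294). Each of these 3 lost its call in 3 fits that left out an array.

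The 5 collapsin response mediator proteins, which bind tubulin and relay Sema3a signals, were all higher in neurons, with a median log2 difference of 2.91. Of all genes tested 31.0% were higher in neurons and 31.1% in astrocytes, and no list was tested as a set. Crmp1 gave 3415 and 3704 in neurons and 20 and 22 in astrocytes, and Dpysl3 gave 4446 and 5250 in neurons and 329 and 332 in astrocytes, 14.1-fold (3.82, adjusted p 1.63e-07). Of 8 tested genes in the kinase list, which counts the activator Cdk5r1, 6 were higher in neurons and 1 in astrocytes. Cdk5r1, the activator of Cdk5, which phosphorylates these proteins, gave 2010 and 2176 in neurons and 71 and 38 in astrocytes, 32.4-fold (5.02, adjusted p 5.89e-07), or 3.39 as the mean of its tested probe sets. Fyn, the Src-family kinase of the Sema3a response, gave 1169 and 1203 in neurons and 353 and 323 in astrocytes, 3.42-fold (1.77, adjusted p 5.55e-06).

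Small GTPases and their regulators were divided, with 5 higher in neurons and 8 in astrocytes of 17 tested and a median of -0.28. The shares were 29.4% and 47.1%, against 31.0% and 31.1% of all genes tested. Tiam1, a Rac exchange factor, gave 451 and 276 in neurons and 34 and 29 in astrocytes, 8.32-fold (3.06, adjusted p 1.22e-05). Farp1, an exchange factor that works with plexins, gave 423 and 487 in neurons and 206 and 232 in astrocytes, 2.02-fold (1.01, adjusted p 0.000471). Rras, the substrate of the plexin GTPase-activating region, gave 75 and 87 in neurons and 512 and 671 in astrocytes, 6.42-fold higher in astrocytes (-2.68, adjusted p 4.49e-06). Rnd3, of the Rnd family that binds plexins, gave 219 and 267 in neurons and 898 and 910 in astrocytes, 3.60-fold higher in astrocytes (-1.85, adjusted p 1.01e-05). Relatives of these genes, chosen after their values were seen, went the other way: Farp2 gave 17 and 16 in neurons, both background, and 49 and 49 in astrocytes (adjusted p 0.00395), and Rnd2 gave 184 and 168 in neurons and 97 and 132 in astrocytes (adjusted p 0.0293, lost in 3 fits that left out an array).

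Of 8 MICAL and actin effectors tested, 3 were higher in neurons (37.5%, against 31.0% of all genes) and 4 in astrocytes (50.0%, against 31.1%). Mical3, of the redox enzymes that take actin apart, was higher in neurons by 0.87 (adjusted p 0.00428), at 146 and 127 in neurons and 63 and 75 in astrocytes, a call lost without neuron replicate 1 (0.0571) or astrocyte replicate 1 (0.0618). The related Mical1, chosen after its values were seen, went the other way, at 31 and 16 in neurons and 72 and 75 in astrocytes. Its difference was -1.29 (adjusted p 0.00303), or -1.59 to -0.98 when an array was left out, and neuron array 2 was at background. Gipc1, an adaptor that binds neuropilin tails, was higher in neurons by 0.63 (adjusted p 0.0282), a call lost when any array was left out. Myl9, a myosin light chain, gave 14 and 49 in neurons and 1602 and 2008 in astrocytes, 44.7-fold higher in astrocytes (-5.48, adjusted p 2.98e-06), with -4.88 and -6.09 without neuron replicate 1 and 2. Iqgap1, a scaffold of the actin cortex, gave 156 and 122 in neurons and 624 and 645 in astrocytes, 4.30-fold higher in astrocytes (-2.10, adjusted p 8.98e-06).

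**Figure D5:**
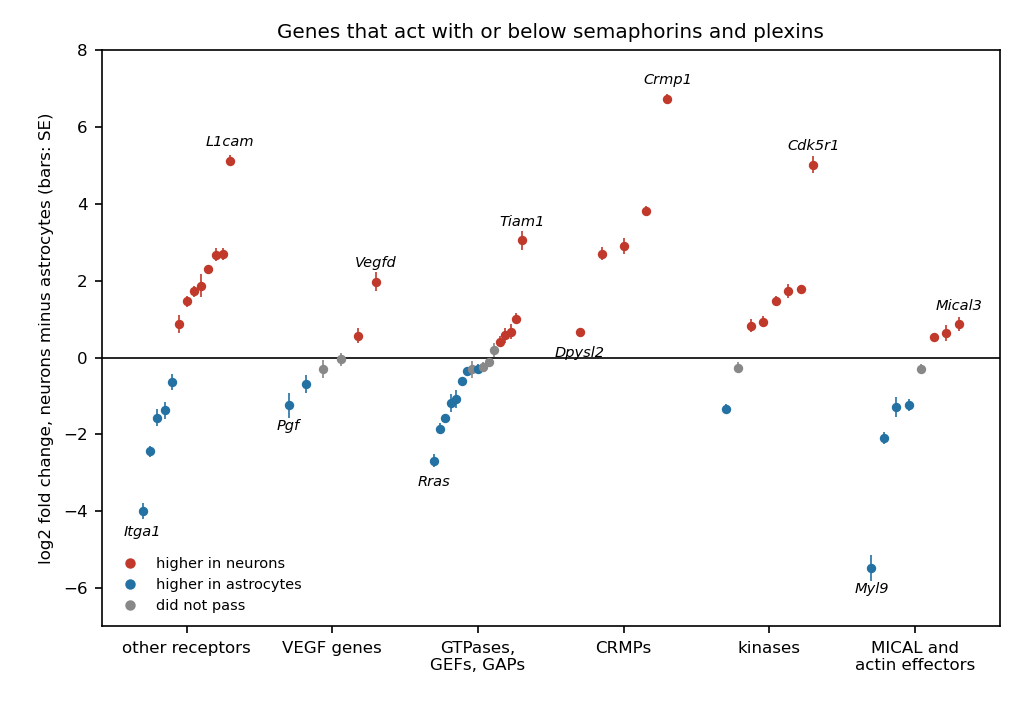
Log2 difference, neurons minus astrocytes, with its standard error for the 57 tested genes of the 6 lists, 1 point per gene in rising order within a list, red where higher in neurons, blue where higher in astrocytes and grey where not called. All 5 collapsin response mediator proteins lie above 0, while the GTPase and actin lists lie on both sides.

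Markers of other cell types were summed over each list as measured facts beside these differences. Over 8 endothelial and mural markers the sums were 203 and 520 in neurons and 5266 and 5396 in astrocytes, with Acta2 the brightest, at 87 and 361 in neurons and 4544 and 4791 in astrocytes. Pecam1, Cdh5, Cldn5 and Tek were at background on both neuron arrays, and Pecam1 also on both astrocyte arrays. Over 8 fibroblast and meningeal markers the sums were 527 and 558 in neurons and 4011 and 4230 in astrocytes, led by Islr, at 29 and 32 in neurons and 2465 and 2689 in astrocytes, with Foxc1 and Slc6a13 at background in neurons and Slc6a13 in astrocytes. Over 8 microglia markers the sums were 131 and 161 in neurons and 758 and 756 in astrocytes, with Aif1, C1qa, Itgam and Trem2 at background in neurons and Itgam in astrocytes. A few bright genes carried these sums, and single markers did not all go the same way. Of 4 endothelial and mural markers tested, 0 were higher in neurons, 2 were higher in astrocytes (Pdgfrb and Acta2) and 2 did not pass (Kdr and Rgs5). Of 7 fibroblast and meningeal markers tested, 1 was higher in neurons (Lum), 5 were higher in astrocytes and 1 did not pass (Dcn, 290 and 391 in neurons and 255 and 261 in astrocytes). Of 5 microglia markers tested, 0 were higher in neurons, 4 were higher in astrocytes and 1 did not pass (Cx3cr1). The oligodendrocyte lineage list, 7 of 8 markers with a probe set, summed to 5322 and 4413 in neurons and 4200 and 4597 in astrocytes. Of its 6 tested markers, 4 were higher in neurons, among them Pdgfra at 1177 and 1302 in neurons and 19 and 21 in astrocytes, 1 was higher in astrocytes (Olig1, 2899 and 1895 in neurons and 3500 and 3997 in astrocytes), and 1 did not pass (Olig2, 663 and 642 in neurons and 617 and 508 in astrocytes). Mog was at background in both cultures. The part of these cells in the results was not tested.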

How the data were processed

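Expression was measured on 4 mouse arrays, 2 of neuron and 2 of astrocyte cultures. Per the labels' protocols, 50 ng of Trizol-extracted RNA went through repeated cDNA synthesis into biotin-labelled cRNA. The deposited values are intensity values on a linear scale, and the submitters' processing notes name MAS5 (version not given in the sources used here). Precision is limited by the number of arrays.

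Control probe sets (64) were left out. Signals were taken to log2 after adding 12.5, the median over arrays of the 25th percentile. The 25019 probe sets at or above the array's median on at least 2 of 4 arrays were fitted with limma 3.58.1 in R 4.3.3 (lmFit, eBayes with a trend, 2 residual and 6.27 prior degrees of freedom, two-sided), with Benjamini-Hochberg adjustment over all of them and a threshold of 0.05. The median standard error was 0.197. Fold changes are on this offset scale and understate changes of dim genes. Folds given as "at least" set the brighter group's signal against the background of the dimmer. Platform symbols were updated by Entrez ID through RefSeq for 34741 of the 34945 probe sets with 1 symbol, while 932 had several and 9160 none.

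Every member is named. Array values are given for called members of at least 2-fold and for other members where the text sets them side by side, and each pathway list is represented by its 2 largest called differences in each direction, except for 1 kinase that is not reported here. The members, lists and pairs were chosen with earlier results of these data known. Alternatives covered the offset, normalization, filter, trend, replicate block, probe set choice and leaving out each array.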

Additional observations from a re-analysis of the deposited data

How the results depend on the processing

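Leaving out each array in turn gave 10 to 12 members higher in neurons, against 15 with all arrays, and 6 to 6 higher in astrocytes. The drop was general: over all genes these fits gave 2581 to 2663 higher in neurons, against 3737, and 2516 to 2977 in astrocytes, against 3749. Over probe sets the ranges were 19 to 24 and 9 to 12, against 28 and 13, and over the pathway lists 21 to 24 and 14 to 16, against 29 and 20. Of the 21 called members 14 kept the call in all 4 of these fits and 7 lost it in at least 1 (Sema3a, Sema4c, Sema5a, Sema6b, Sema7a, Plxna1 and Plxna4). A fit with 1 array in a group assumes that it varies like the other group. A filter at the 75th percentile left 17 members tested, with 9 higher in neurons, 14 probe sets higher in neurons and 8 in astrocytes, and 12 pathway genes higher in astrocytes, fewer because fewer were tested. Averaging all tested probe sets of a gene turned Sema4d to 0.95 (adjusted p 0.00603) and Rap1a to 0.17 (adjusted p 0.203), against -0.39 and -0.35, and called Sema3f (-1.03, adjusted p 0.00238) and Sema4b (adjusted p 0.0333). It gave 3.19 for Sema4f, 2.72 for Plxnc1 and -2.90 for Sema3b. An offset 4 times as large gave smaller differences for dim genes, such as 3.24 for Sema4f, 2.42 for Plxnd1, 1.91 for Sema4a, 1.90 for Nrp2, 1.60 for Sema3a, 1.33 for Plxna4, 0.96 for Sema6c and 0.82 for Sema6b. Quantile normalization and no filter each ended the calls of Sema4c and Sema5a and of no other member. Equal replicate numbers do not pair the samples by any label, and same-numbered deviations correlated at -0.0901 over 2 pairs. With the replicate number as a block, 15 and 6 members, 28 and 12 probe sets and 28 and 18 pathway genes were higher in neurons and in astrocytes, and no member's call changed. The signal over background limits Sema3b, Sema3g, Sema4c, Sema4f, Sema6b, Sema6c, Plxna4 and Plxnb3, each with at least 1 array at background.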
